A study of Gallus gallus with 9 samples.

Results

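The circulating red blood cells (RBCs) of chick embryos were compared between embryonic day 6 (E6) and embryonic day 4 (E4). The comparison rests on 4 of the 9 arrays of the series, 2 of E6 RBCs against 2 of E4 RBCs, and genes were described by whether both values of a stage lay beyond both values of the other. Blood was drawn from the hearts of the embryos and parted by density into heavy red cells and a lighter fraction of the remaining cells (nRBCs). Duplicate arrays held amplified RNA of separate pools of embryos, so that a value is an average over many animals and over every cell type left in the fraction. The 4 nRBC arrays of the same stages served for comparison, and the array of embryonic heart was not used here. Whether RBC and nRBC arrays came from the same pools is not stated. Fewer cells of a type and less RNA per cell cannot be told apart in such samples.

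The first red cells of the chick embryo are primitive erythroid cells, which arise in the yolk sac and enter the circulation while still dividing. There they mature together: they fill with hemoglobin, leave the cell cycle, condense the nucleus, which birds retain, and dismantle ribosomes. Definitive red cells follow as a later wave, and a density gradient does not part these lineages.

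Erythroid markers were detected in the fraction. Of the 8 erythroid markers measured, 7 or 8 were called Present, the detection call of the Affymetrix software, on each RBC array, and their summed normalized signal was 52700 and 52200 at E4 and 61800 and 54900 at E6. The same 8 markers were Present on every nRBC array too, with sums of 43400 and 45800 at E4 and 64000 and 45800 at E6. Globins near the top of the scale, where signals can saturate, made up most of these sums. The sums are therefore a poor measure of how far the fractions differ. By quantitative PCR the study found hemoglobin transcripts higher in RBCs. The α-type globins HBA1, HBAD and HBZ, the embryonic β-type globin HBE, the anion exchanger SLC4A1 and the membrane skeleton protein EPB42 all stood at a log2 signal above 12 on all 4 RBC arrays. On the nRBC arrays EPB42 was dimmer, at 11.26 and 10.50 at E4 and at 12.39 and 11.64 at E6. SLC4A1 overlapped between the fractions at both stages. Markers of other cells were scarce in RBCs: 1 of 6 thrombocyte markers, 2 of 12 macrophage and granulocyte markers, 0 of 11 endothelial markers, 0 or 1 of 11 cardiac muscle markers and 0 to 2 of 8 fibroblast markers were Present on an RBC array.

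The 4 arrays differed more by their number than by stage in their raw scale. The arrays numbered 1 held 2172 (E4) and 1880 (E6) signals below 1, and those numbered 2 held 214 and 188. Since each number holds both stages, a gene without overlap differs the same way within both. Present calls were made for 29.4% and 25.2% of probe sets at E4 and for 26.2% and 22.4% at E6. The ratio of 3′ to 5′ signal of GAPDH, a measure of RNA integrity, was 9.44 and 11.1 at E4 and 9.51 and 10.9 at E6, and therefore followed array number and not stage. That of actin was 5.75 and 4.39 at E4 and 5.72 and 4.91 at E6. It was lower on the arrays numbered 2, where that of GAPDH was higher. After quantile normalization the duplicate arrays correlated at r = 0.853 (E4) and 0.848 (E6), and arrays of different stages at 0.825 to 0.860.

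No probe set passed the test of stage in RBCs. Of 38439 probe sets, 0 (0.0%) had an adjusted p under 0.05 in limma, the smallest adjusted p was 0.288, and 3058 had an unadjusted p under 0.05, of which 1419 were higher and 1639 lower at E6. With 2 arrays against 2 an exact permutation test cannot give a p below 0.333. What follows is therefore a description of values that do not overlap between the stages. Both E6 arrays lay above both E4 arrays for 7359 probe sets (19.1%) and below them for 7556 (19.7%). Counted once per gene symbol, 2641 of 13009 symbols (20.3%) were higher and 3054 (23.5%) lower. Among the 5837 symbols Present on at least 2 RBC arrays, 1350 (23.1%) were higher and 1894 (32.4%) lower. These shares are the background for the counts of members after quantile normalization below.

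The split between the directions depends on how the arrays were brought to a common scale. Of the probe sets without overlap, 49.3% were higher at E6 after quantile normalization, 73.7% after scaling each array to the median of those probe sets that every blood array called Present, and 40.3% with arrays centred on their own medians. The median log2 difference of all probe sets moved from 0.02 to 0.44 and to -0.09. Counted per symbol, 4137 were higher and 2050 lower after median scaling, and 1687 and 3977 with arrays centred only. Counts of members in these scalings are to be read against those of all symbols. Gene lists are therefore given beside the median of the 5837 symbols Present on at least 2 RBC arrays, which was -0.07 after quantile normalization, 0.08 after median scaling and -0.45 with arrays centred only. Both of the latter scalings shift all values of an array by the same amount. A list median relative to this median is therefore the same in both by construction, and counts as a single alternative.

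The widest gap among genes higher at E6 belonged to RHAG, the Rh-associated glycoprotein of the red cell membrane. Its log2 signals were 6.69 and 4.47 on the E4 arrays and 11.44 and 11.28 on the E6 arrays. Both E6 values lay far above both E4 values, and the E4 arrays themselves differed by over 2 log2 units. The log2 difference was 5.78 (SE 1.13, n = 2 arrays per stage, limma adjusted p = 0.288), or 55.0-fold, and a further probe set of the gene gave the same 5.78. On the nRBC arrays RHAG was also higher at E6, by 4.49.

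ABCG2, an efflux pump that carries porphyrins out of cells, stood at 4.61 and 4.07 at E4 and at 9.05 and 8.78 at E6. It was Present on neither E4 array and on both E6 arrays, the duplicates lay close together, and the stages did not overlap. The log2 difference was 4.57 (SE 0.49, limma unadjusted p = 3.3e-05, adjusted p = 0.288). Where no array of a stage was Present, a fold is given as a bound, against the dimmest signal called Present on each array, or the measured signal where that is brighter. ABCG2 was at least 23.8-fold higher at E6, and a further probe set at least 10.6-fold higher.

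BCL11A encodes a transcription factor known in mammals for silencing embryonic and fetal globin genes. Its log2 signals were 4.51 and 4.33 at E4 and 8.02 and 8.55 at E6, Present only on the E6 arrays. The stages did not overlap, and BCL11A was at least 14.6-fold higher at E6 (log2 difference 3.86, SE 0.49, limma adjusted p = 0.288). Another of its probe sets, Present on 1 E4 array, was higher by 2.38, while the remaining 2 were Present on no RBC array. On the nRBC arrays the leading probe set stood at 8.43 and 8.50 at E4 and at 9.30 and 8.91 at E6.

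CAPN8 and CAPN2, calcium-dependent proteases, were both among the widest gaps. CAPN8 stood at 3.21 and 3.56 at E4 and at 7.48 and 7.49 at E6. CAPN2 stood at 4.21 and 4.76 at E4 and at 7.97 and 7.25 at E6. Neither was Present at E4, and the bounds were at least 17.2-fold and 8.71-fold. CD99, a small surface glycoprotein, was Present on all 4 arrays, at 8.96 and 7.36 at E4 and 11.76 and 11 at E6. It was 9.31-fold higher at E6, with no overlap.

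Other leading genes higher at E6 were the chitinase CHIA, the meiotic chromosome protein HORMAD1 and the adhesion protein TNS1. Their leading probe sets were Present on no E4 array and were at least 13.5-fold, 7.43-fold and 7.6-fold higher. A further probe set of TNS1, Present on every RBC array, was higher by only 0.90 on the log2 scale. That of CHIA, Present on 1 E4 array, overlapped, at 0.79. The guanylate-binding protein GBP, the dermatan sulfate epimerase DSE and the transcription factor FOXO1 were 9.2-fold, 5.82-fold and 5.04-fold higher. DERL3, which acts in the degradation of misfolded proteins of the endoplasmic reticulum, the potassium chloride cotransporter SLC12A4 and YPEL2 completed the list, at 7.33-fold, 5.68-fold and 9.92-fold. Further probe sets of SLC12A4 that were Present on every RBC array overlapped, at log2 differences of 0.99 and 0.09. Such a probe set of YPEL2 overlapped at 0.26, while 3 of its 5 further probe sets were higher without overlap. Of the 15 leading probe sets, 7 were Present on no E4 array. Of the 16 further probe sets of these genes that were Present on at least 1 RBC array, 10 were higher without overlap, 6 overlapped and 0 were lower without overlap.

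**Figure D1:**
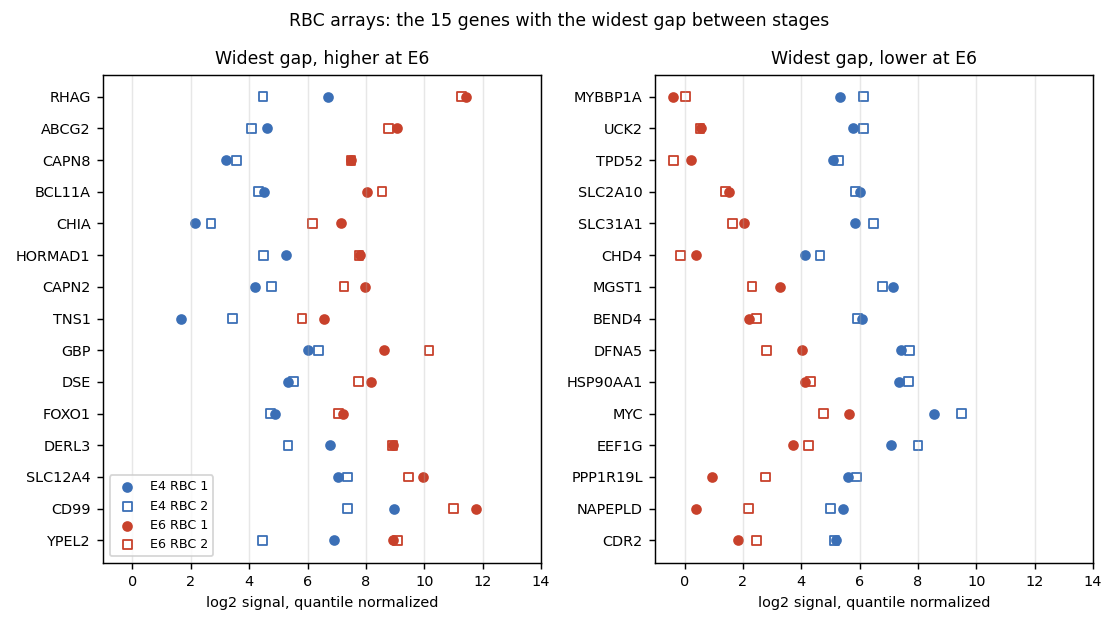
The 15 genes with the widest gap in each direction among those with 1 symbol and Present on both arrays of the higher stage. Each row is a gene and each point the log2 signal, quantile normalized, of an RBC array, with E4 in blue, E6 in red, number 1 filled and number 2 open. In every row the blue and red points lie apart, as the choice of genes requires, by 4.59 log2 units for RHAG and 2.01 for YPEL2 among genes higher at E6, and by 5.31 for MYBBP1A and 2.67 for CDR2 among genes lower.

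Among genes lower at E6, MYC was Present on all 4 arrays. This transcription factor drives growth and proliferation. MYC stood at 8.54 and 9.48 at E4 and at 5.64 and 4.77 at E6. Both E6 values lay well under both E4 values, at a log2 difference of -3.81 (SE 0.81, limma adjusted p = 0.295), which is 14-fold lower at E6. On the nRBC arrays the difference was -0.86 and the stages overlapped.

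Of the 15 leading probe sets lower at E6, chosen as Present on both E4 arrays, 13 were Present on no E6 array. Other probe sets of MGST1, SLC31A1, TPD52, CHD4 and NAPEPLD were Present on at least 1 E6 array, so that these genes were not below detection. MGST1, a membrane-bound glutathione transferase, stood at 7.15 and 6.79 at E4 and at 3.28 and 2.31 at E6. It was at least 17.9-fold lower at E6 on that probe set, while its brighter one, at 9.12 and 9.31 against 7.49 and 7.56, differed by -1.69. DFNA5, a gasdermin, stood at 7.43 and 7.71 against 4.03 and 2.80 and was at least 17.8-fold lower.

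SLC31A1, the copper importer, stood at 5.84 and 6.46 at E4 and at 2.04 and 1.64 at E6, at least 10.8-fold lower. Of its 5 further probe sets 2 were also lower without overlap, 2 overlapped and 1, Present on no RBC array, was higher. UCK2, a kinase of pyrimidine salvage, stood at 5.77 and 6.12 against 0.55 and 0.53, at least 9.38-fold lower. MYBBP1A, a nucleolar protein, stood at 5.34 and 6.14 against -0.39 and 0.03, which is at least 8.12-fold lower. Here the E6 signals were at the bottom of the scale, so the measured differences are larger than the bounds.

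The glucose transporter SLC2A10, the chromatin remodeller CHD4, the translation factor EEF1G and the chaperone HSP90AA1 were also on this list. HSP90AA1, Present on 1 E6 array, was 9.69-fold lower on that probe set, and the bounds were at least 9.36-fold for SLC2A10, 3.17-fold for CHD4 and 11.8-fold for EEF1G. TPD52, BEND4, PPP1R19L, NAPEPLD and CDR2 were at least 5.47-fold, 9.43-fold, 7.03-fold, 5.66-fold and 5.2-fold lower on their leading probe sets. A brighter probe set of TPD52, Present on every RBC array, had a log2 difference of -1.71. The further probe set of NAPEPLD, Present on 1 array of each stage, overlapped, at 0.52. CHD4 had a further Present probe set, at 6.54 and 6.74 against 7.21 and 6.76, that was higher at E6 without overlap, so its direction is not settled. Of the 11 further probe sets Present on at least 1 RBC array, 7 were lower without overlap, 3 overlapped and 1 was higher.

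The gene lists fell into groups. Cell cycle, ribosome biogenesis, chaperone, histone and aminoacyl-tRNA synthetase genes had larger shares lower at E6 than the background of 23.5%. So had proteasome (46.9%), ribosomal protein (45.5%), glycolysis (43.5%), translation factor (38.9%) and respiratory chain genes (32.8%). Cell cycle exit, membrane, autophagy and ubiquitin genes had larger shares higher than the background of 20.3%. Gas transport (41.2%), heme synthesis (36.4%), immediate early (33.3%), erythroid transcription factor (30.6%) and receptor genes (29.4%) also lay above it. Detected genes differ from the background in themselves, since 32.4% of Present symbols were lower, and the counts of Present members are to be read against that share. No list was tested as a set, and 0 members of any list passed limma.

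**Figure D2:**
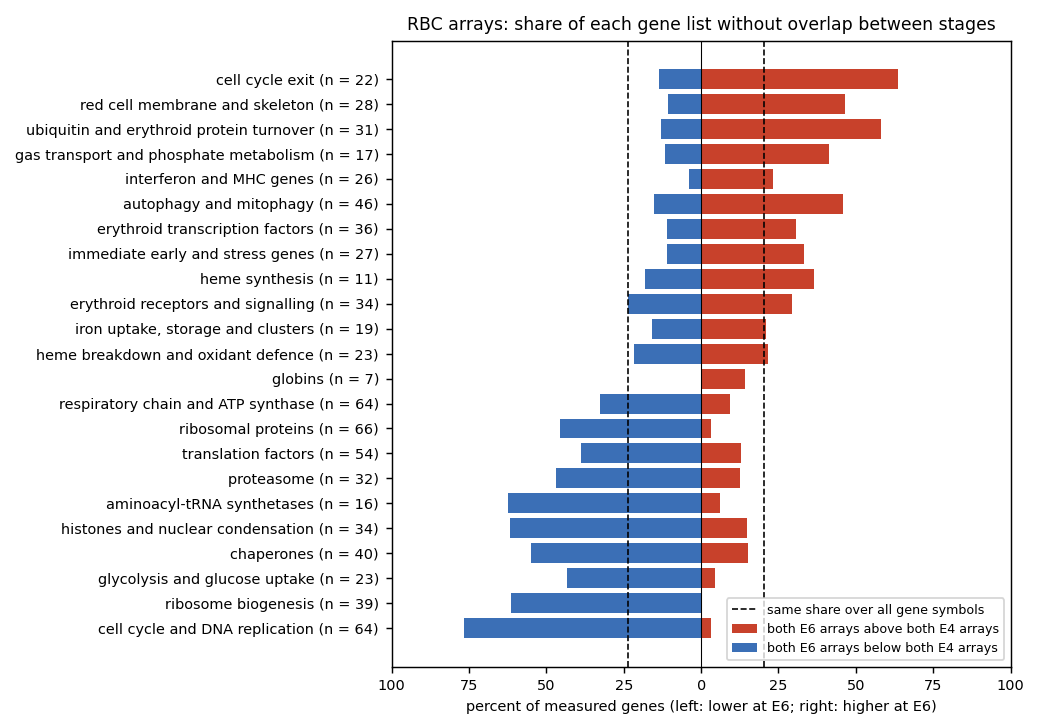
Share of the measured genes of each functional list whose 2 E6 RBC values lay both above (red, right) or both below (blue, left) the 2 E4 values, with 1 probe set per gene, in order of the median difference. Dashed lines mark the same shares over 13009 gene symbols, 20.3% and 23.5%. Cell cycle and DNA replication reaches 76.6% on the left and cell cycle exit 63.6% on the right.

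Genes of the cell cycle and DNA replication were lower at E6 more often than those of any other list. Of 64 measured, 49 were lower without overlap, 2 higher and 13 overlapping, with a median log2 difference of -0.89, and 48 of the 58 Present on at least 2 arrays were among those lower. Relative to all Present symbols the median of the Present members was -0.85, and -0.99 in the other scalings. SMC2, a condensin subunit, stood at 10.77 and 11 at E4 and at 9.22 and 9.26 at E6. The duplicates agreed closely, and the stages lay 1.64 log2 units apart. The SE of 0.69 also takes in the nRBC arrays, which stood at 8.41 and 10.35 at E6.

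MCM3, a subunit of the replicative helicase, stood at 7.12 and 7.65 against 5.78 and 5.72, a log2 difference of -1.64. ORC1, of the origin recognition complex, stood at 7.78 and 8.81 against 6.61 and 6.61, a difference of -1.68. KIF20A, a kinesin of cytokinesis, stood at 8.28 and 8.34 against 6.88 and 6.16, a difference of -1.79. All 3 were Present on every RBC array and did not overlap between stages.

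Other members were chosen for mention after their values were seen. TOP2A, MKI67, CDK1, PCNA and RRM2 were lower without overlap by smaller amounts, from -1.30 for TOP2A to -0.33 for RRM2, and RRM2 remained among the bright genes at a log2 signal of 12.19 and 12.02 at E6. PRIM1, the catalytic subunit of primase, was Present on 1 E4 array and on neither E6 array, at least 8.17-fold lower. The 2 members higher at E6 were D-type cyclins: CCND2 was higher by 0.77, at 8.24 and 8.02 against 8.97 and 8.84, and CCND1 by 1.03.

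Genes that restrain the cycle stood the other way. Of 22 measured cell cycle exit genes, 14 were higher at E6 without overlap, 3 lower and 5 overlapping, with a median of 0.74. Set against all Present symbols, the Present members lay at 0.77, and at 0.71 in the other scalings. CDKN1B, which encodes the cyclin-dependent kinase inhibitor p27, stood at 10.21 and 9.85 at E4 and at 11.40 and 11.63 at E6. CDKN1A, which encodes p21, stood at 8.30 and 7.96 against 9.45 and 9.63. Their log2 differences were 1.49 (SE 0.57) and 1.41 (SE 0.68).

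FOXO1, of the forkhead factors that act in arrest and stress resistance, stood at 4.89 and 4.73 at E4 and at 7.22 and 7.07 at E6. It was Present on all 4 arrays and 5.04-fold higher. FOXO3, chosen with the erythroid factors, was brighter, at 10.05 and 9.08 against 10.94 and 10.94, a difference of 1.37. The 3 members that were lower were RBL1, a retinoblastoma relative (-1.17), CDKN3 (-0.59) and E2F5 (-0.11).

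The MYC network differed between stages member by member. MXD4, MXD1 and MXI1 encode proteins that compete with MYC for their shared partner. MXD4 stood at 5.32 and 3.14 at E4 and at 7.06 and 6.84 at E6, 6.58-fold higher. It was Present on 1 E4 array, and its log2 difference of 2.72 was 1.63 without E4 array 2. MXD1 stood at 8.17 and 7.34 against 9.29 and 9.28, 2.88-fold higher. MXI1 stood at 10.93 and 11.31 against 12.25 and 12.44, 2.34-fold higher. All 3 lay opposite to MYC, without overlap, and their directions held in each scaling.

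Of 36 erythroid transcription factors measured, 11 were higher at E6, 4 lower and 21 overlapping, with a median of 0.27. With arrays centred only 7 were higher and 5 lower (median -0.04). Of the 19 Present on at least 2 arrays, 8 were higher and 2 lower. BACH1, a heme-binding repressor, stood at 9.62 and 8.35 against 10.67 and 9.95, a log2 difference of 1.32, and KLF3 was higher by 0.83. GFI1B, a repressor needed for erythroid development, was lower by 0.71 on the log2 scale, at 9.57 and 8.69 against 8.51 and 8.33.

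The core factors TAL1 and LMO2 overlapped between the stages. GATA1, KLF1 and NFE2, asked for as erythroid markers, were not matched to a probe set and so not measured. TAL1 stood at 8.20 and 9.58 at E4 and at 9.43 and 10.03 at E6, and LMO2 had a difference of 0.29 (SE 0.71). ETS1 and TCF3 were higher by 0.10 and 0.38, without overlap, but lay below 0 with arrays centred only, and CBFB, Present on no RBC array, had a difference of -0.01. Of the 5 further probe sets of ETS1, 4 were Present on no RBC array, and the study listed ETS-1 among genes higher in nRBCs. LDB1 and MAFG were higher, and RUNX1 lower, without a Present call on any RBC array, so no fold is given.

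**Figure D3:**
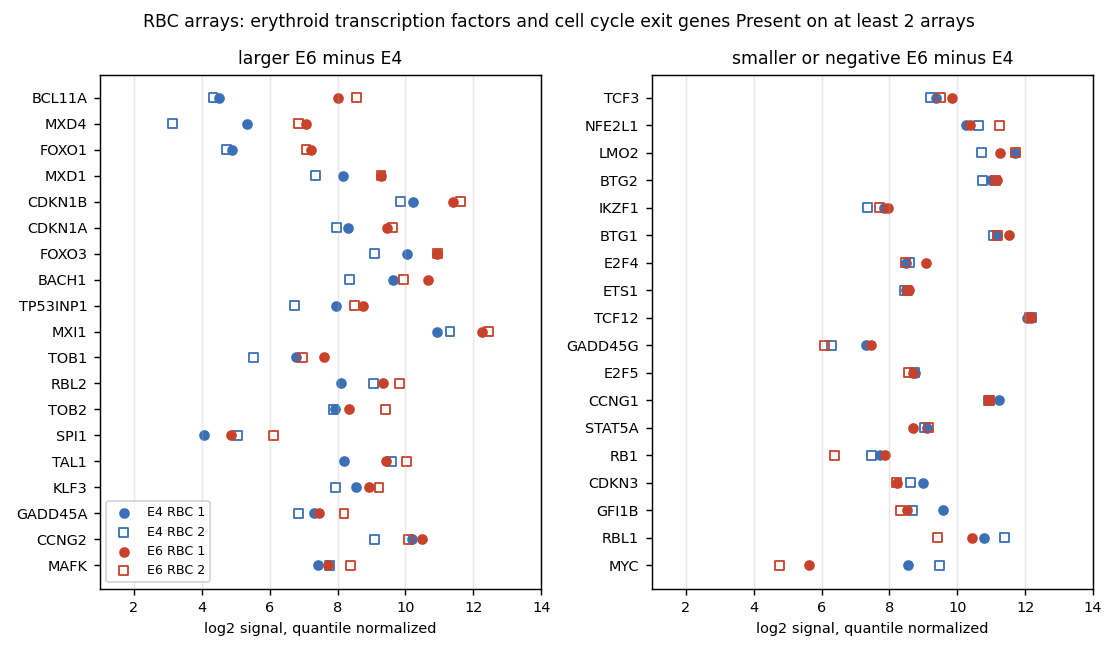
Erythroid transcription factors and cell cycle exit genes Present on at least 2 RBC arrays, ordered from the largest log2 difference (BCL11A, 3.86) to the lowest (MYC, -3.81). Points are log2 signals, quantile normalized, of the 4 RBC arrays, with E4 in blue, E6 in red, number 1 filled and number 2 open. In the left panel MXD4, FOXO1, CDKN1B and MXI1 have both red points to the right of both blue points, and in the right panel the points of LMO2 overlap and those of MYC lie apart the other way.

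Genes of ribosome biogenesis were lower at E6 or overlapped. Of 39 measured, 24 were lower, 0 higher and 15 overlapping, with a median of -0.70. The Present members lay, relative to all Present symbols, at -0.73, and at -0.88 in the other scalings. NPM1, nucleophosmin, stood at 12.34 and 12.03 at E4 and at 11.08 and 9.88 at E6. NCL, nucleolin, stood at 11.16 and 12.38 against 9.00 and 10.99. Their log2 differences were -1.70 (SE 0.69) and -1.77 (SE 0.86).

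NOLC1, another nucleolar protein, was at least 3.76-fold lower, and NHP2, a component of guide ribonucleoproteins, stood at 8.04 and 8 against 4.56 and 7.78. For NHP2 the E4 arrays agreed, and E6 array 1 alone was far lower. In nRBCs 3 members of the list were higher and 3 lower, with a median of -0.32.

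Ribosomal protein genes differed little. Of 66 measured, 30 were lower and 2 higher, with a median of only -0.14. After median scaling 8 were lower and 27 higher, a turn that the counts of all symbols also made. Relative to all Present symbols the Present members lay at -0.07, and at 0.04 in the other scalings. RPL9 had 13.53 and 13.53 at E4 and 13.63 and 13.63 at E6, near the top of the scale, where signals can saturate. RPL35A, at 11.11 and 10.91 against 10.32 and 10.35, had the largest difference of the members named by rule, at -0.68. RPS12 was higher by 0.20, and at -0.08 with arrays centred only.

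Translation factors had 21 of 54 lower and 7 higher (median -0.17), and aminoacyl-tRNA synthetases 10 of 16 lower and 1 higher (median -0.35). The median of translation factors was -0.05 after median scaling. EIF3A, a scaffold of initiation, stood at 10.08 and 10.26 at E4 and at 9.28 and 8.95 at E6, a difference of -1.05. RARS, which charges arginine tRNA, stood at 9.99 and 10.25 against 8.85 and 9.00, a difference of -1.19. Proteasome genes had 15 of 32 lower and 4 higher, with a median of -0.23, among them PSMD14 at -1.16 and PSMA7 at -0.81.

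Chaperones were lower at E6 in 22 of 40 measured genes and higher in 6, with a median of -0.62. Set against all Present symbols, the Present members lay at -0.70, and at -0.77 in the other scalings. HSP90AA1 stood at 11.01 and 11.38 at E4 and at 9.15 and 9.07 at E6 on its brighter probe set, 4.24-fold lower, and its dimmer probe set was 9.69-fold lower. HSPD1, the mitochondrial chaperonin, stood at 12.12 and 12.14 against 10.14 and 11.13. CCT8, a subunit of the cytosolic chaperonin, stood at 11.14 and 10.98 against 9.93 and 9.13.

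The chaperone list held exceptions. HSF3, a heat shock factor of birds, stood at 8.44 and 8.52 at E4 and at 9.70 and 9.62 at E6, a log2 difference of 1.18. DNAJB9 and DNAJB4 were higher by 0.74 and 0.54. BAG1 was higher by 0.41, but its difference was -0.02 with arrays centred only.

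**Figure D4:**
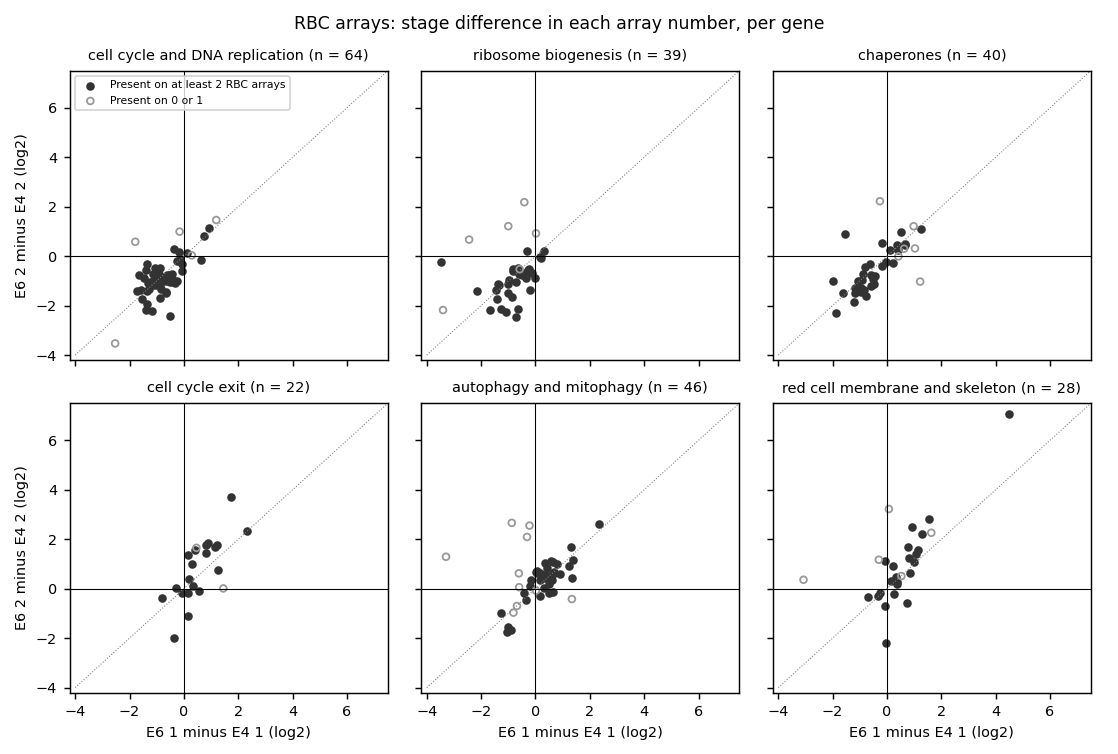
Stage difference of each gene (E6 minus E4, log2, quantile normalized) in arrays numbered 1 (horizontal) and 2 (vertical), for 6 gene lists. Filled points are genes Present on at least 2 RBC arrays, open points the others, and the dotted line marks equal differences. Cell cycle genes gather in the lower left quadrant (median -0.88 in number 1 and -0.97 in number 2) and cell cycle exit genes in the upper right (0.44 and 0.89).

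Both array numbers gave the same direction for these lists. The median of ribosome biogenesis genes was -0.72 in number 1 and -0.78 in number 2, and that of chaperones -0.55 and -0.74. Over the 10572 probe sets Present on at least 2 RBC arrays, the differences of the 2 numbers correlated at r = 0.57, against 0.12 over all probe sets. Array number, raw scale and pool go together, so this is a description of the arrays at hand. The median SD within a stage was 0.34 log2 units over those probe sets. The SD of the stage differences, taken across the same probe sets, was 0.81. The first is a median of a value per probe set, so the 2 are unlike measures and do not give a ratio to noise.

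Some values rested on 1 array. Of 177 named differences without overlap, 34 changed by over 1.5 times in fold, not in log2 difference, when some array was left out. Without E4 array 2 the log2 difference of RHAG was 4.66, that of CD99 2.42, of STOM 0.82, of BPGM 1.30, of FBXO32 1.27 and of KLF6 1.03. Without E6 array 1 that of NHP2 was -0.24 and of NCL -0.76, and without E6 array 2 that of SRF was 0.88. Without E4 array 2 that of LDHB was -1.91. All these kept their direction, which leaving out 1 array can hardly change where the stages do not overlap.

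Genes of histones and nuclear condensation were lower in 21 of 34 and higher in 5, with a median of -0.51. LMNB2, a nuclear lamin, stood at 9.24 and 10.35 at E4 and at 8.25 and 8.53 at E6. HMGB2, a chromatin protein of proliferating cells, stood at 9.42 and 9.17 against 7.85 and 8.17. KMT5A, the histone H4 lysine methyltransferase, stood at 7.51 and 7.36 against 6.30 and 6.30. The 3 differences were -1.41, -1.28 and -1.13, without overlap. CBX3, a heterochromatin protein, was lower by 1.07 on the log2 scale.

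Of the genes higher at E6 on this list, only KMT5B and H3F3B were Present on both E6 arrays. KMT5B, which adds further methyl groups to the same residue as KMT5A, stood at 4.13 and 4.55 against 5.89 and 5.69, at least 2.72-fold higher. H3F3B, a replication-independent histone H3, was higher by 0.08 at a log2 signal above 12, and at -0.15 with arrays centred only.

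Of 7 globin genes measured, 1 (MB) was higher at E6 and 0 lower, and those of red cells did not part the stages. HBA1 stood at 13.19 and 13.16 at E4 and at 13.32 and 12.98 at E6. HBAD stood at 13.50 and 13.38 against 13.53 and 13.50, and HBZ at 13.41 and 13.44 against 13.46 and 13.41. HBE and HBBR, the β-type globins measured, stood at 12.97 to 13.39 on the 4 arrays. All 5 were at the top of the scale, where saturation would hide a difference, and their log2 differences were -0.02 to 0.08. MB and CYGB, which are not red cell globins, were Present on no RBC array. The β-type globin HBBA, asked for as an erythroid marker, was not matched to a probe set.

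Of 11 heme synthesis genes, 4 were higher at E6, 2 lower and 5 overlapping, with a median of 0.19. With arrays centred only 0 were higher and 1 lower (median -0.03), and after median scaling 8 and 0. ALAS2, asked for as an erythroid marker, was not matched to a probe set. ALAS1, the housekeeping form of the first enzyme of the pathway, stood at 7.33 and 6.69 at E4 and at 7.90 and 7.78 at E6, a log2 difference of 0.83 (SE 0.49). SLC25A38, a mitochondrial carrier that brings in glycine, stood at 11.75 and 11.09 against 12.48 and 11.78. The stages of SLC25A38 lay only just apart, and a further probe set was lower at E6. UROS and TMEM14C were higher by 0.38 and 0.19, and 2 further probe sets of TMEM14C were lower.

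UROD, an enzyme of the middle of the pathway, stood at 12.67 and 12.55 against 12.31 and 12.33, a log2 difference of -0.28. CPOX, the next enzyme, had a difference of -0.17, which turned to 0.27 after median scaling. FECH, which inserts the iron, stood at 10.92 and 11.21 at E4 and at 11.49 and 11.03 at E6 and overlapped, as did ABCB10, FAM210B, ALAD and ABCB6. The differences of heme synthesis genes were thus small beside those of the cell cycle list. Some lay near the top of the scale, where saturation would hide a difference. At E4 CPOX stood at 13.27 and 13.29 and TMEM14C at 13.12 and 12.85.

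Iron genes were near the background, with 4 of 19 higher and 3 lower and a median of 0.04 (1 and 5, median -0.24, with arrays centred only). ACO1, which serves as an iron-responsive RNA-binding protein, stood at 7.54 and 7.83 at E4 and at 6.40 and 5.28 at E6. It was 3.59-fold lower, without overlap. TFRC, the transferrin receptor, stood at 13.14 and 13.04 against 12.78 and 12.78, a log2 difference of -0.31 that was 0.01 after median scaling.

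FTL, a ferritin subunit, stood at 8.16 and 8.35 against 8.83 and 8.98, a difference of 0.65. NCOA4, the receptor that delivers ferritin to lysosomes, stood at 12.61 and 12.21 against 13.17 and 12.95, also a difference of 0.65. ISCA1 and ISCA2, which build iron-sulfur clusters, were higher by 0.72 and 0.33, the latter at -0.14 with arrays centred only, and EXOC6 was at -0.20. Of the 3 further probe sets of ISCA1, 1 was higher and 1 lower without overlap. TCF3, HMOX2, EPB41, TPM3, EXOC6, ETS1, NOLC1, DNAJB4, CCT8 and RPS12 also had 1 further probe set each on the opposite side. SLC25A37, the mitochondrial iron importer, and FTH1 overlapped near the top of the scale.

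Genes of heme breakdown and oxidant defence were also near the background, 5 of 23 higher and 5 lower (median 0.03), with 1 and 7 for arrays centred only (median -0.38). PGD, of the pentose phosphate pathway, stood at 10.19 and 10.45 at E4 and at 9.48 and 9.40 at E6, and HMOX2, a heme oxygenase, at 10.23 and 9.99 against 9.33 and 9.59. Both were lower without overlap, by 0.89 and 0.65 on the log2 scale. NFE2L2, the factor that drives antioxidant genes, was higher by 0.63, at 11.60 and 11.28 against 12.09 and 12.05. BLVRA, biliverdin reductase, was higher by 0.35 but at -0.11 with arrays centred only.

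Genes of the red cell membrane and skeleton were higher at E6 in 13 of 28 and lower in 3, with a median of 0.52. The counts were 11 and 5 with arrays centred only. The Present members lay, relative to all Present symbols, at 0.59, and at 0.52 in the other scalings. TMOD4, a tropomodulin that caps actin filaments, stood at 7.11 and 6.31 at E4 and at 8.64 and 9.11 at E6, 4.48-fold higher. VIM, vimentin, which avian red cells keep as intermediate filaments, stood at 10.61 and 9.49 against 11.89 and 11.70, 3.36-fold higher. STOM, stomatin, stood at 7.06 and 5.32 against 7.98 and 7.80, 3.25-fold higher.

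In the rest of the list, ANK1, ankyrin, stood at 10.89 and 10.89 against 11.88 and 11.96, a log2 difference of 1.03. RHCE, which sits with RHAG in the Rh complex, stood at 11.29 and 10.49 against 12.42 and 12.04, a difference of 1.34. SPTAN1, a spectrin, differed by 0.74 and EPB41 by 0.41. These 4 genes were chosen after their values were seen. SPTBN1, TPM3 and ADD3 were lower without overlap, at -1.11, -0.52 and -0.23, and SLC4A1 overlapped, at 12.26 and 12.64 against 12.63 and 12.90.

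Gas transport and phosphate genes were higher in 7 of 17 and lower in 2, with a median of 0.40. With arrays centred only 4 were higher and 4 lower (median 0.27), and after median scaling 11 and 2. BPGM makes 2,3-bisphosphoglycerate, a phosphate that can lower the oxygen affinity of hemoglobin. It stood at 10.80 and 9.28 at E4 and at 12.34 and 11.85 at E6, 4.14-fold higher (SE of the log2 difference 0.79). A further BPGM probe set was Present on no RBC array and overlapped. ITPK1, an inositol phosphate kinase, was higher by 0.85, at 10.66 and 10.21 against 11.29 and 11.26.

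CREB1 and CREM, transcription factors of the cyclic AMP pathway, were higher by 1.52 and 0.87, and each had a further probe set that was lower without overlap, that of CREB1 Present on no RBC array. The carbonic anhydrases differed in direction. CA13, Present on all 4 arrays, stood at 12.54 and 12.51 against 13.03 and 13.04, and 2 further probe sets were also higher. CA2 stood at 6.57 and 6.05 at E4, Present on 1 array, and at 3.85 and 3.30 at E6, Present on neither, which is at least 6.66-fold lower. Both were chosen after their values were seen.

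Glycolysis genes were lower in 10 of 23 and higher in 1, with a median of -0.65. Relative to all Present symbols the Present members lay at -0.73, and at -0.60 in the other scalings. LDHB, a lactate dehydrogenase subunit, stood at 10.65 and 11.95 at E4 and at 8.77 and 8.69 at E6, 5.94-fold lower. TPI1, triosephosphate isomerase, stood at 8.94 and 9.28 against 7.30 and 7.91, a log2 difference of -1.5. PDK1 and PFKP were lower without overlap, at -1.17 and -1.09. The 1 member that was higher was BPGM, whose product branches off from glycolysis.

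Respiratory chain and ATP synthase genes had 21 of 64 lower and 6 higher, with a median of -0.10. Set against all Present symbols, the Present members lay at -0.03, and at -0.11 in the other scalings. CYCS, cytochrome c, stood at 10.91 and 11.34 against 9.54 and 9.94, a difference of -1.39. NDUFS8, a subunit of complex I, stood at 9.04 and 9.19 against 9.97 and 10.11, a difference of 0.93. Members of the list thus lay on both sides, and ATP5H was at 0.18 and at -0.14 with arrays centred only.

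Autophagy and mitophagy genes were higher at E6 in 21 of 46 and lower in 7, with a median of 0.39, and all 21 were Present on at least 2 arrays. The counts were 5 higher and 8 lower with arrays centred only (median 0.04), and 27 and 4 after median scaling. The Present members lay, relative to all Present symbols, at 0.47, and at 0.49 in the other scalings. SQSTM1, the cargo receptor p62, stood at 7.30 and 6.40 at E4 and at 9.63 and 9.02 at E6. It was 5.57-fold higher (SE of the log2 difference 0.67, limma adjusted p = 0.398), and 2 of its 3 further probe sets were higher too. ULK1, the kinase that starts autophagy, stood at 7.81 and 7.20 against 9.13 and 8.88, a log2 difference of 1.5.

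MAP1LC3A, an LC3 protein of the autophagosome, stood at 9.34 and 9.07 against 10.71 and 10.24, and the lysosomal protease CTSD at 7.44 and 7.36 against 8.66 and 8.27. Their differences were 1.27 and 1.06. BNIP3L, the receptor that clears mitochondria from maturing mammalian red cells, was chosen after its values were seen and was higher by 0.70, at 12.39 and 12.04 against 12.75 and 13.08. FUNDC1, another mitophagy receptor, ULK3, ATG4C and ATG12 were lower without overlap, from -1.39 to -1.12.

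Genes of the list of ubiquitin and erythroid protein turnover were higher in 18 of 31 and lower in 4, with a median of 0.41. With arrays centred only 5 were higher and 4 lower (median 0.04), and after median scaling 21 and 2. Relative to all Present symbols the Present members lay at 0.51, and at 0.49 in the other scalings. FBXO32, an F-box protein of a ubiquitin ligase, stood at 7.78 and 6.41 at E4 and at 9.32 and 8.81 at E6, 3.92-fold higher. RNF11, a RING finger protein, stood at 7.59 and 6.95 against 9.11 and 8.38, 2.78-fold higher. The conjugating enzymes UBE2J1 and UBE2G1 were higher by 0.89 and 0.77, while UBE2E1 and UBE2K stood at -0.96 and -0.65. UBE2Z stood at -0.35, and at 0.02 after median scaling.

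Receptor and signalling genes were higher in 10 of 34 and lower in 8 (median 0.05), with 5 and 8 for arrays centred only and 13 and 5 after median scaling. Of the 16 Present on at least 2 arrays 7 were higher and 3 lower, and these lay 0.44 above all Present symbols, and 0.53 in the other scalings. Members of the BCL2 family, which set cell survival, stood on both sides. BCL2 stood at 6.48 and 6.93 at E4 and at 4.07 and 5.46 at E6, at least 3.83-fold lower. BCL2L1, which encodes BCL-XL, stood at 7.90 and 8.29 against 8.65 and 9.55, a log2 difference of 1.01, and MCL1 was higher by 0.84.

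SOCS1, an inhibitor of cytokine signalling, stood at 6.37 and 6.57 against 7.48 and 7.45, a log2 difference of 1. In nRBCs SOCS1 was lower at E6 without overlap, by 0.32 on the log2 scale, and the difference between the fractions did not pass limma. SMAD6 was higher by 0.65 and SMAD2 stood at -0.40. SMAD1 stood at -0.48, and at 0.01 after median scaling. KIT, the stem cell factor receptor, was Present on no RBC array.

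Immediate early and stress genes were higher in 9 of 27 and lower in 3, with a median of 0.20. With arrays centred only 4 were higher and 5 lower, and after median scaling 13 and 1. KLF6 stood at 7.52 and 6.02 at E4 and at 8.88 and 8.23 at E6, 3.45-fold higher, and 2 further probe sets were higher as well. SRF was higher by 1.70 and ATF4, a factor of the amino acid and heme stress response, by 1.10. FOS and JUN overlapped. Interferon and MHC genes were higher in 6 of 26 and lower in 1, with a median of 0.39. IFI6 stood at 6.70 and 5.92 against 7.59 and 8.57, a difference of 1.77, IFNAR1 and IRF2 were higher by 0.69 and 0.54, and SAMHD1 was at least 3.60-fold lower.

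The levels of markers of other cells are given beside these values. TUBB1, a tubulin of thrombocytes that red cells of birds also contain, was the only thrombocyte marker Present, at 12.47 and 11.96 at E4 and at 12.83 and 12.62 at E6. The summed normalized signal of the 6 thrombocyte markers was 5710 and 4140 at E4 and 7410 and 6460 at E6. RGS18, Present on no RBC array, was the other one higher. TUBB1 made up nearly all of these sums. The macrophage and granulocyte list summed to 796 and 759 at E4 and to 538 and 593 at E6. MRC1, a mannose receptor of macrophages, stood at 9.22 and 8.85 against 7.60 and 7.34, while CSF1R, PTPRC and MARCO were Present on no RBC array. MRC1 made up most of the sum at E4, and the other members together were not lower at E6. On the nRBC arrays MRC1 was dimmer, at 6.53 and 7.01 at E4 and at 6.18 and 6.11 at E6. Of this list 3 were higher and 1 lower.

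The 11 endothelial markers summed to 257 and 179 at E4 and to 396 and 602 at E6, with 2 higher and 2 lower and none Present. The 11 cardiac muscle markers summed to 160 and 212 at E4 and to 147 and 162 at E6, with 4 higher and 5 lower, and TNNT2 was Present on 1 E4 array and TNNI1 on 1 E6 array. The 8 fibroblast markers summed to 115 and 115 at E4 and to 79.3 and 200 at E6, with 1 higher and 2 lower. The erythroid list had 1 of 8 higher, RHAG, and 0 lower. The part of other cells in the stage differences was not tested.

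The same stage contrast was set beside the nRBC fraction. On the nRBC arrays, 6560 probe sets (17.1%) were higher at E6 without overlap and 6176 (16.1%) lower, and per symbol 1954 (15%) and 2297 (17.7%). Of the probe sets higher in RBCs, 1851 were also higher in nRBCs, which is 25.2% of the RBC and 28.2% of the nRBC set, and 896 (12.2%) were lower. Of those lower in RBCs, 1538 were also lower in nRBCs, 20.4% of the RBC and 24.9% of the nRBC set, and 824 (10.9%) were higher. Over the 6595 probe sets called Present by every blood array, the stage differences of the 2 fractions correlated at r = 0.61, against 0.11 over all probe sets. The fractions share the stage and may share pools and red cells, so no p is given. The nRBC arrays held more markers of other cells, with 5 of 6 thrombocyte and 9 or 10 of 12 macrophage and granulocyte markers Present on an array. Of the fibroblast markers 7 of 8 were Present on each, with a summed signal of 7350 and 7810 at E4 and 8450 and 3230 at E6. Cardiac muscle markers were Present in 6 to 8 of 11, with sums of 1490 and 1070 at E4 and 4450 and 1530 at E6. Their GAPDH ratio of 3′ to 5′ signal was 5.2 and 4.22 at E4 and 12.7 and 5.99 at E6, so that E6 array 1 was highest in both. The part of these markers and ratios in the differences was not tested.

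The difference between the fractions itself was called for 0 of 38439 probe sets (0.0%) by limma, with a smallest adjusted p of 0.409 and 2036 at an unadjusted p under 0.05. Nothing can therefore be called particular to RBCs. Some contrasts, chosen after their values were seen, are given as values. BCL11A was higher by 3.86 in RBCs and by 0.64 in nRBCs, and the difference of 3.22 had an unadjusted p of 0.0024 and an adjusted p of 0.711 in limma. CD99 differed by 3.22 in RBCs and -0.01 in nRBCs, and VIM by 1.75 and 0.08. On the E4 nRBC arrays BCL11A stood at 8.43 and 8.50, CD99 at 12.20 and 11.72 and VIM at 11.25 and 11.44. Each of these genes was thus brighter there than on the E4 RBC arrays. The part of other cells in these contrasts was not tested. TMOD4, at 2.16 and 3.23, BPGM, at 2.05 and 2.14, and FOXO3, at 1.37 and 2.08, were higher in both fractions without overlap. Their E6 nRBC duplicates lay apart, at 9.18 and 6.77 for TMOD4, 11.06 and 10.07 for BPGM and 11.82 and 9.64 for FOXO3. Array 1 was the higher each time, and no nRBC array was left out in turn.

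The counts of some lists in nRBCs are given side by side, with no test of a difference between the fractions. Cell cycle genes were lower in 26 of 64 and higher in 2 (median -0.59), and cell cycle exit genes higher in 5 and lower in 0 (median 0.34). Autophagy genes were higher in 17 of 46 and lower in 2, and membrane genes higher in 11 of 28 and lower in 2. Ubiquitin genes were higher in 6 and lower in 5 of 31 (median 0.03), and chaperones higher in 2 and lower in 8 of 40 (median -0.46). Counts were larger than in RBCs for gas transport genes, with 9 of 17 higher, iron genes, with 6 of 19, interferon and MHC genes, with 8 of 26, and erythroid markers, with 4 of 8.

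**Figure D5:**
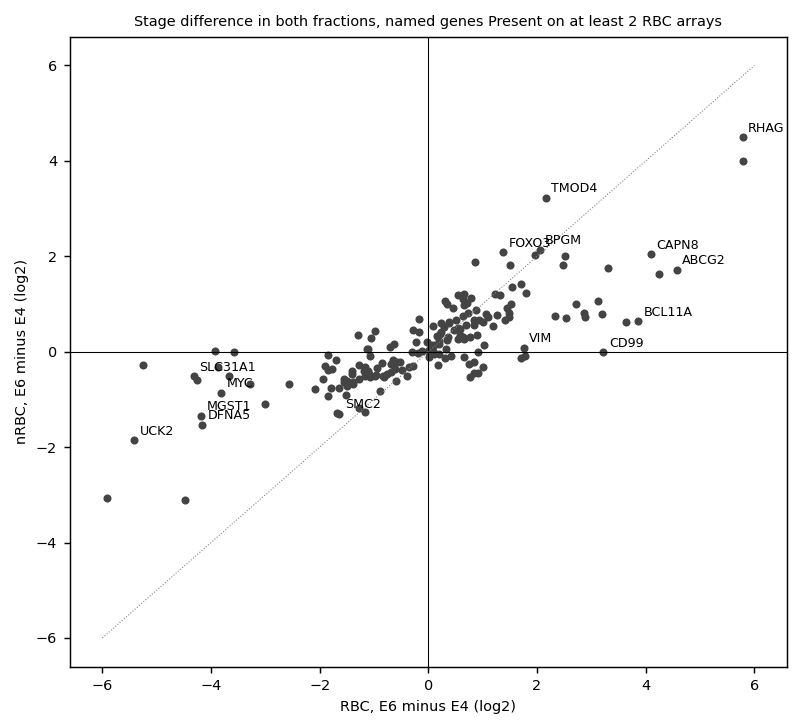
Stage difference (E6 minus E4, log2, quantile normalized) in RBCs (horizontal) and nRBCs (vertical) of the named genes Present on at least 2 RBC arrays, chosen on their RBC values or by list. The dotted line marks equal differences. RHAG lies far to the upper right (5.78 and 4.49), CD99 (3.22 and -0.01) and VIM (1.75 and 0.08) near the horizontal axis, and MYC (-3.81 and -0.86) to the left.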

How the data were processed

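RNA of circulating blood cells was amplified in 2 rounds and hybridized to the Affymetrix chicken array, and the deposited intensity values are MAS5 signals on a linear scale that the authors did not bring to a common scale. For the MAS5 software, no version is named by the sources used here. The deposited detection calls (Present, Marginal, Absent) are the only record of depth, and the number of arrays limits the precision. The authors' series matrix was found to hold the same values as log2 with the mean of the array subtracted (largest deviation 1.3e-06) and served as an alternative. Signals of 0 (6 on the RBC arrays) were set to 0.1, the 96 control probe sets were left out, and quantile normalization of the log2 values took in all 8 blood arrays. In limma 3.58.1 (R 4.3.3), stages were compared in a model with a mean for each of 4 groups, with Benjamini-Hochberg adjustment over 38439 probe sets, after a check on simulated data. Since the study's own test compared fractions only, this design was chosen for the stage contrast.

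In the annotation of the platform, 27168 probe sets had 1 symbol, 177 had several and 11094 had none. Genome coordinates and sequences were not used. Lists took the probe set with the highest mean signal per symbol, and 128 of 713 list genes asked for were not matched. Named were the 15 widest gaps in each direction (1 symbol, Present on both arrays of the higher stage), the globins, heme synthesis genes and transcription factors, and up to 4 members per list and direction. Other members were chosen after their values were seen. The members, lists and tests were chosen with earlier results of these data known. RBC arrays of the same number deviated from their stage means together at r = 0.14 over all probe sets and 0.35 over the 10572 Present on at least 2 RBC arrays, and with 2 pairs only the numbers were not taken as pairs. Alternatives were other scalings, an offset, filters on Present calls, the series matrix and an intensity trend. Others were fewer arrays in the fit, the array number as a block and leaving out each RBC array.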

Additional observations from a re-analysis of the deposited data

How the results depend on the processing

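The limma test of stage called 0 probe sets under every scaling, with the series matrix, with the 4 RBC arrays alone, at an adjusted p under 0.1 and without any array. It called 1 with 16 added to each signal (ABCG2), 2 among probe sets Present on at least 2 RBC arrays (ABCG2 and BCL11A), 3 with an intensity trend (ABCG2, BCL11A and ATP1B1) and 10 among those Present on at least 2 blood arrays, a setting chosen after seeing the data. At an unadjusted p under 0.05 it called 3058. The replicate block, with arrays of the same number as pairs, called 0, and both pairs of a number lay higher at E6 for 11408 probe sets and lower for 10965.

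Probe sets higher without overlap numbered 12271 after median scaling, 2443 among those Present on at least 2 RBC arrays, 3237 on at least 2 blood arrays and 13158 to 13779 without an array, where 2 against 1 overlaps less by construction. Those lower numbered 4386, 3100, 4091 and 12998 to 13542. The difference between fractions called 0 in each setting tried.

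Over the alternatives for 209 named differences, 262 values moved by more than the spread within stages (96 with arrays centred only, 54 after median scaling, 13 to 22 without each array). Another 18 values, of genes without overlap, turned sign. After median scaling these were CPOX 0.27, TFRC 0.01, SMAD1 0.01, UBE2Z 0.02 and CBFB 0.53. With arrays centred only they were BLVRA -0.11, ISCA2 -0.14, CBFB 0.00, TCF3 -0.10, ETS1 -0.42, H3F3B -0.15, BAG1 -0.02, RPS12 -0.08, EIF1B -0.14, EIF1 -0.17, ATP5H -0.14, PSMD5 -0.31 and HARS1 -0.03. Genes whose stages overlapped are not among these 18, though some of them changed sign too. List medians moved by more than their spread 71 times (18 with arrays centred only, 13 after median scaling), and 6 had the opposite sign with arrays centred only: those of erythroid transcription factors (-0.04), heme synthesis (-0.03), heme breakdown (-0.38), iron (-0.24), receptors (-0.11) and globins (-0.05). Of the medians of marker lists, thrombocyte markers (1.33) ranged from -0.07 to 2.61 and endothelial markers (0.94) from -0.13 to 0.57 on leaving out an array, both lowest without E4 RBC replicate 1. Apart from the shift of scale, the cause was not tested.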
